A study of Mus musculus with 2 samples.

Results

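The genes described here carry out the oxidation of fatty acids in mitochondria and peroxisomes or build the peroxisome. The 48 members were given as a fixed list of gene symbols and were found on the arrays through the RefSeq transcript of each probe. All 48 were present, out of 20884 genes named on the arrays, and they were read by 57 probes. By main location and role, 30 were treated as mitochondrial and 18 as peroxisomal. The 30 include Acot1, a cytosolic enzyme, and Cpt1c, a form known from the endoplasmic reticulum. RNA came from small proliferative adipocytes after differentiation (SPAD) and from stromal vascular cells after the same treatment (SVCD). The source of both was epididymal fat of male C57/BL mice. Small proliferative adipocytes are the cells that sediment when the floating fraction of collagenase-digested fat is spun again, and stromal vascular cells are the lower phase of the initial spin. Both populations were cultured in DMEM and then received insulin, dexamethasone and IBMX for 3 days, followed by 2 days in DMEM, so every value describes cells after adipogenic induction. Each group was measured on 1 single-colour Agilent array, and the labels do not say how many mice or cultures gave the RNA. Without replicates, no difference could be tested.

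In mitochondrial oxidation, long-chain acyl groups are carried across the membranes as carnitine esters. Acyl-CoA dehydrogenases, hydratases, hydroxyacyl-CoA dehydrogenases and thiolases then shorten them in repeated rounds, and electrons pass through the electron transfer flavoprotein to the respiratory chain. Peroxisomes shorten very long and branched chains and pass the products on to mitochondria, and their enzymes are imported by proteins called peroxins. White fat cells mostly store fatty acids, and many oxidation genes are known targets of PPAR transcription factors, which pair with retinoid X receptors on repeats of the motif AGGTCA.

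Promoter windows of 300 bases around the transcription start were available for 39 members (RefSeq, GRCm38.p6). The motif AGGTCA, read on both strands, stood in the windows of 8 of these genes (20.5%) and in 18.6% of their 43 windows, against 16.3% of 32851 windows of all genes. Longer motifs that contain AGGTCA were in 0 of the members' windows. TNAAGGTCA, an estrogen-related receptor site, was in 1.28% of all windows, and the PPAR direct repeat, AGGTCA repeated after 1 base of any kind, in 0.0396%. The site of NRF1, a regulator of mitochondrial genes, was in the windows of Abcd3, Acad10, Etfb and Etfdh, which is 9.30% of the members' windows against 4.60% of all. A match is a string of letters and no evidence of binding. Ucp3 and Cpt1c are shown for AGGTCA, in capitals, since Ucp3 was among the lowest members and Cpt1c among the higher ones. Ucp3 is at chr7:100472741-100473040 (plus strand) and Cpt1c at chr7:44974802-44975101 (minus strand).
Ucp3: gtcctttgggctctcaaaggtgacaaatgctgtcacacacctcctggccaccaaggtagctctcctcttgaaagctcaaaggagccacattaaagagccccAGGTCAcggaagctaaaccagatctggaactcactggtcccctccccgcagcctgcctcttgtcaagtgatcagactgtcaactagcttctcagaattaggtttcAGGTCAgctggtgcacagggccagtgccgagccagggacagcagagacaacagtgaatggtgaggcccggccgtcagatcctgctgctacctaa
Cpt1c: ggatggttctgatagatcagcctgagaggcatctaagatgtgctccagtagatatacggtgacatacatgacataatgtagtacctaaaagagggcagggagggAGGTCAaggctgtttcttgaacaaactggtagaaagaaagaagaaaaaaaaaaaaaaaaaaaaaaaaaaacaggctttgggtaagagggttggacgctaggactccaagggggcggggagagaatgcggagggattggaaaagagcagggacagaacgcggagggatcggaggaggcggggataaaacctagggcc

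Etfb and Etfdh belong to the same electron path and both hold the NRF1 site, shown in capitals. With the array scaling described below, Etfb was lower in SPAD (log2 difference -1.26) and Etfdh higher (0.34). With the spike-in scaling, also described below, both were lower, Etfb at -2.10 and Etfdh at -0.50. The gap between them, Etfb minus Etfdh, was -1.60 and does not depend on this choice. Etfb is at chr7:43443822-43444121 (plus strand) and Etfdh at chr3:79628718-79629017 (minus strand). Hadha, at chr5:30154931-30155230 (minus strand), is shown because it and Hadhb are neighbours read in opposite directions, and the capitals mark the 228 bases that also lie in the Hadhb window.
Etfb: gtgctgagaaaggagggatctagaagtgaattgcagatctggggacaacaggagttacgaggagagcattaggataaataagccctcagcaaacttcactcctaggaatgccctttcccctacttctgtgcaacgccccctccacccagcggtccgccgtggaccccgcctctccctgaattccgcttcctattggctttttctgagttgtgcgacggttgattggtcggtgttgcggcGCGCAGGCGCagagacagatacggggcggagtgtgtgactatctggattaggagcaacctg
Etfdh: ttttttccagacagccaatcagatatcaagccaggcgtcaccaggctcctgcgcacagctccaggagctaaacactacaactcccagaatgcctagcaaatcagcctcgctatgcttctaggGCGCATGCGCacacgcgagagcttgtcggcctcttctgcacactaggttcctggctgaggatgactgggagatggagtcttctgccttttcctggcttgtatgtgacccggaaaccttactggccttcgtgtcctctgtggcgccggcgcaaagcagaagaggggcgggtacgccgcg
Hadha: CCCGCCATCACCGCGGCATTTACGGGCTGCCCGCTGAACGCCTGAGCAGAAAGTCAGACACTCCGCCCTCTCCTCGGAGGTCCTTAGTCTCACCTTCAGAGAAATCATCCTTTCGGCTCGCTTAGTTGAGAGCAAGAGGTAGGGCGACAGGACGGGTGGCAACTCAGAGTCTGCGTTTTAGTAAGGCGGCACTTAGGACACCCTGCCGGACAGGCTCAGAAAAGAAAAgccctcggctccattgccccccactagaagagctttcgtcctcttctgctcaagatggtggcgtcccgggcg

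The cultures differed in cell markers as well. All 10 adipocyte markers were at least 2-fold higher in SPAD, among them the adiponectin gene Adipoq at 336 in SPAD and 22.7 in SVCD, while all 9 measured cell cycle genes were at least 2-fold lower. Of 6 macrophage markers measured on both arrays, 3 were lower in SPAD by 2-fold or more, and Fcgr1 was well above background in SVCD alone. The summed intensity of the macrophage list was 120030 in SPAD and 174933 in SVCD, of which Lyz2 gave 98429 in SPAD and 84459 in SVCD. Of the endothelial markers 7 of 8 were at least 2-fold higher (summed intensity 12766 in SPAD and 4566 in SVCD). Of the smooth muscle markers 4 of 5 were at least 2-fold lower (15373 in SPAD and 213331 in SVCD), and of the mesothelial markers 3 of 5 (1259 in SPAD and 11699 in SVCD), with Upk3b and Lrrn4 not well above background in SPAD. Of 8 stromal progenitor markers, 3 were at least 2-fold higher and 1 lower, and Dpp4 was well above background on neither array. Of 6 brown fat markers, 3 were well above background in SPAD alone, among them Ucp1 at 190 in SPAD and 4.21 in SVCD. The 2 measured on both arrays were below 0, Dio2 at 2.17-fold lower and Cox7a1 at -0.20, and Elovl3 was well above background on neither. Their summed intensity was 1060 in SPAD and 1061 in SVCD, of which Cox7a1 gave 799.7 in SPAD and 1001 in SVCD. In these bulk samples, fewer cells of a type and less RNA per cell cannot be told apart. The part of these shifts in the differences below was not tested.

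Values are processed intensities, which are background-subtracted and linear, and differences are SPAD minus SVCD in log2 intensity after each array was scaled to its 75th percentile. The scaling adds 0.13 to every log2 difference. The error is the spot-to-spot SD of a log2 difference for repeated probes of similar signal, divided by the square root of the number of spots. It ran from 0.26 for the dimmest to 0.03 for bright probes and covers no difference between cultures or RNA preparations. Probes differ in brightness for their own sequence, so no gene's intensity is set against another's.

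Of the 48 members, 47 were well above background on both arrays. Of these, 4 were at least 2-fold higher in SPAD (8.51%), against 14.4% of the 14077 genes measured in this way, and 6 were at least 2-fold lower (12.8%), against 13.3%. In either direction 10 of the 47 were past 2-fold, against 27.7% of all genes. The members were thus past 2-fold no more often than genes in general. Differences below 0 were held by 31 of the 47 members (66.0%), against 46.3% of all genes, and the members' median was -0.15, against 0.07 for all genes. The mitochondrial members had a median of -0.07 and spanned -1.80 to 1.66, with 2 of 30 higher and 6 lower by 2-fold or more. The peroxisomal members had a median of -0.27 with 2 of 17 at least 2-fold higher, 13 below 0 and 0 lower by as much as 2-fold. Only 4 members differed by less than 2 spot errors. Scaled to the spike-in controls, every difference is lower by 0.84 and the median of all genes is -0.77. Past 2-fold there are then 731 higher (5.19%) and 5366 lower genes (38.1%). The members then had 0 higher and 23 lower past 2-fold, with 42 of 47 below 0. A positive difference smaller than 0.84 turns negative under that scaling, whereas gaps between genes do not depend on it.

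**Figure D1:**
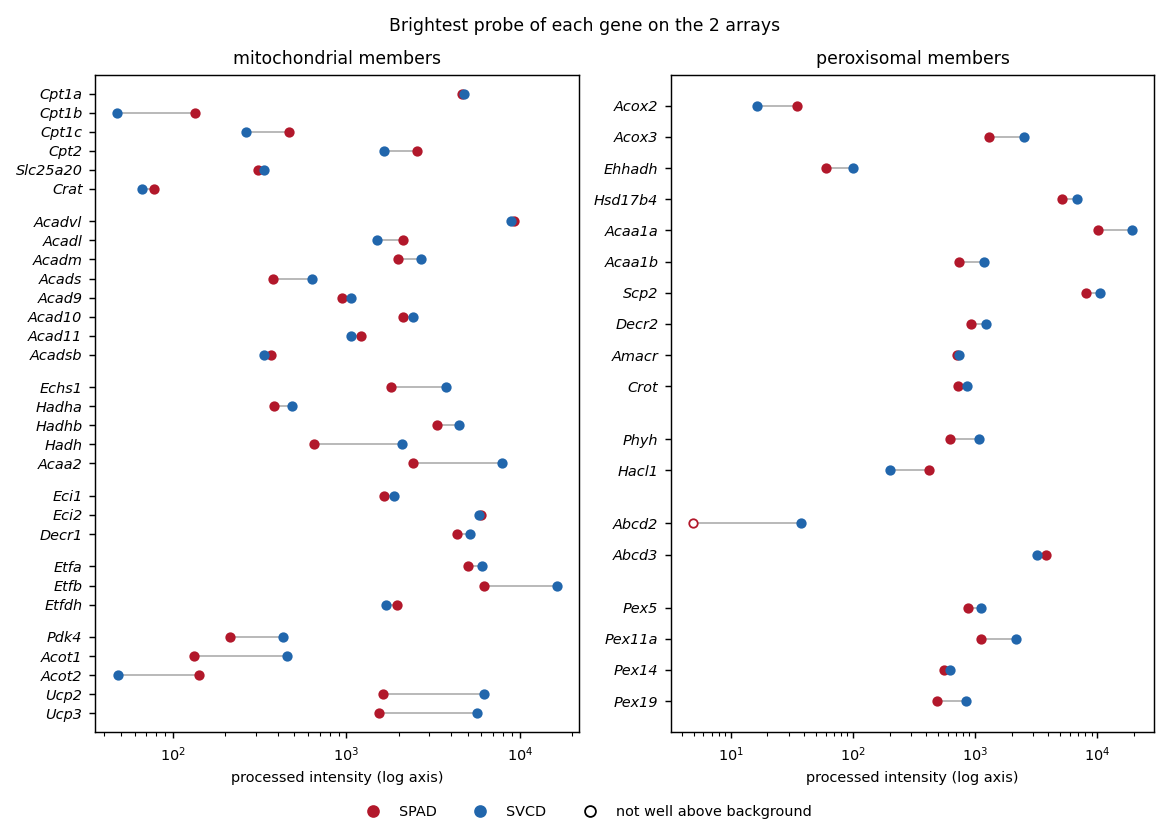
Processed intensity (log axis) of the brightest probe of each member in SPAD (red) and SVCD (blue), without scaling, with mitochondrial members on the left and peroxisomal members on the right in the order of their roles. Cpt1b, Acot2, Acox2 and Hacl1 were brighter in SPAD, while Ucp2, Ucp3, Acaa2, Hadh, Etfb and Acot1 were dimmer, and Abcd2 (open circle) was not well above background in SPAD.

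The carnitine shuttle stood on the higher side. Of its 6 genes, 5 were above 0 with a median of 0.56, or -0.28 with spike-in scaling, and 1 was at least 2-fold higher. Cpt1b, the muscle and brown fat form of the carnitine palmitoyltransferase that commits long chains to oxidation, had an intensity of 134 in SPAD and 47.5 in SVCD and was 3.07-fold higher (1.62 ± 0.11). Its other probe, at 86.2 in SPAD and 32.0 in SVCD, gave 1.56 ± 0.26. Cpt1b was thus higher on both probes, although dim on both arrays.

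Cpt1a, the widely expressed form of the same enzyme, had 4672 in SPAD and 4787 in SVCD (0.09 ± 0.01), and its other probe gave 0.21 ± 0.06. Cpt1c, a form known mainly from neurons and the endoplasmic reticulum, had 468 in SPAD and 262 in SVCD, 1.95-fold higher (0.96 ± 0.06), with 0.98 on the other probe. The differences of the 3 forms thus ran from near 0 for Cpt1a to above 2-fold for Cpt1b. Cpt2, which reforms acyl-CoA on the matrix side, had 2551 in SPAD and 1637 in SVCD (0.77 ± 0.03). Its dimmer probe, at 102 in SPAD and 35.4 in SVCD, gave 1.65 ± 0.26, and the mean of its probes was past 2-fold (1.21). The carnitine-acylcarnitine carrier gene Slc25a20 had 307 in SPAD and 335 in SVCD, a difference within its spot error of 0.06 after scaling. Crat, which makes acetylcarnitine, differed by 0.36 ± 0.11.

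The acyl-CoA dehydrogenases, which start each round, all lay within 2-fold, with 4 of 8 above 0 and a median of 0.07. Acadvl and Acadl, which act on long chains, were above 0. Acadvl, the very long-chain enzyme, had 9298 in SPAD and 8872 in SVCD (0.19 ± 0.04), and Acadl, the long-chain enzyme, had 2130 in SPAD and 1507 in SVCD (0.62 ± 0.03). Acadm, the medium-chain enzyme, had 1987 in SPAD and 2702 in SVCD (-0.32 ± 0.03), and Acads, the short-chain enzyme, had 375 in SPAD and 631 in SVCD (-0.62 ± 0.06). Among these 4 enzymes the long-chain ones were higher in SPAD and the shorter-chain ones lower. With spike-in scaling all 8 dehydrogenases were below 0 and 2 were at least 2-fold lower, as were 38.1% of all genes. Acadsb, for short branched chains, differed by 0.25 ± 0.06 and Acad11, which is also found in peroxisomes, by 0.32 ± 0.03. Acad9, better known for assembling respiratory complex I, and Acad10 differed by -0.05 ± 0.04 and -0.08 ± 0.03.

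The enzymes that complete the round were all lower. The 5 genes had a median of -0.93, and 2 were at least 2-fold lower, against 13.3% of all genes. With spike-in scaling all 5 were at least 2-fold lower, as were 38.1% of all genes. Acaa2, the mitochondrial thiolase that splits off acetyl-CoA, had 2435 in SPAD and 7915 in SVCD, 2.98-fold lower over 10 spots (-1.58 ± 0.01). Hadh, the short-chain hydroxyacyl-CoA dehydrogenase, had 649 in SPAD and 2095 in SVCD, 2.96-fold lower (-1.56 ± 0.04). Echs1, the short-chain enoyl-CoA hydratase, had 1817 in SPAD and 3777 in SVCD, 1.91-fold lower (-0.93 ± 0.03). Acaa2, Hadh and Echs1 thus had the larger differences of the 5 genes.

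Hadha and Hadhb encode the subunits of the trifunctional protein, which performs the same steps on long chains at the inner membrane. Hadha had 383 in SPAD and 485 in SVCD (-0.21 ± 0.06), and Hadhb had 3337 in SPAD and 4432 in SVCD (-0.28 ± 0.04). These neighbours, whose promoter windows overlap in the sequence printed above, differed from each other by 0.07 ± 0.07, within the spot error. The gap between the log2 differences was -1.35 ± 0.07 for Hadh minus Hadha and -1.29 ± 0.04 for Acaa2 minus Hadhb. The auxiliary enzymes for unsaturated chains stayed near 0, with the isomerase genes Eci1 and Eci2 at -0.06 ± 0.03 and 0.15 ± 0.04 and the dienoyl-CoA reductase gene Decr1 at -0.13 ± 0.04, or -0.72 ± 0.26 on a dimmer probe.

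**Figure D2:**
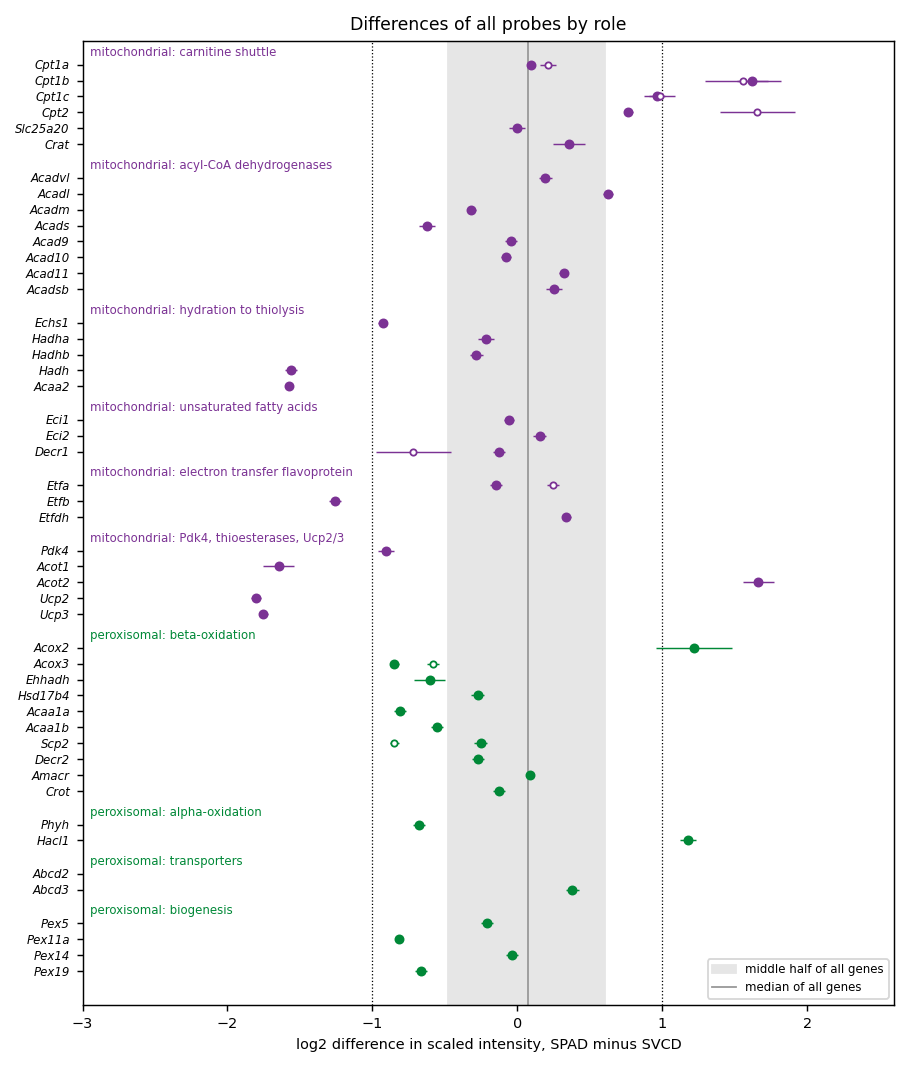
Log2 difference (SPAD minus SVCD) of every probe well above background on both arrays, by role, with purple for mitochondrial and green for peroxisomal members. Filled points are the brightest probe of a gene, open points its other probe, bars the spot error, dotted lines 2-fold, and the grey band the interquartile range of all genes (-0.48 to 0.60). Of the carnitine shuttle genes, 5 of 6 lie above 0, with Cpt1a, Crat and Slc25a20 inside the grey band. The genes from hydration to thiolysis all lie below 0, with Hadha and Hadhb inside the band.

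The genes of the electron transfer flavoprotein path differed from each other. Etfb, the beta subunit, had 6249 in SPAD and 16306 in SVCD, 2.39-fold lower (-1.26 ± 0.04). Etfa, the alpha subunit that pairs with it, had 5001 in SPAD and 6046 in SVCD (-0.15 ± 0.04), and its other probe gave 0.25 ± 0.04, the opposite sign. Etfdh, which passes the electrons to ubiquinone, had 1948 in SPAD and 1681 in SVCD (0.34 ± 0.03). The gap between the log2 differences was -1.11 ± 0.06 for Etfb minus Etfa and -1.60 ± 0.05 for Etfb minus Etfdh. Each of these genes other than Etfa was read by 1 probe.

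Genes that set fuel use and the fate of acyl-CoA held the largest differences in each direction among the members measured on both arrays. Ucp2, an inner-membrane carrier that is abundant in macrophages as well as fat, had 1634 in SPAD and 6216 in SVCD, 3.49-fold lower (-1.80 ± 0.03). Its neighbour Ucp3, known from muscle and brown fat, had 1548 in SPAD and 5691 in SVCD, 3.37-fold lower (-1.75 ± 0.03). On both arrays the other Ucp3 probe was not well above background, at 6.16 in SPAD and 2.07 in SVCD, so the Ucp3 value rests on 1 of its 2 probes. The gap between them, Ucp2 minus Ucp3, was -0.05 ± 0.05. Macrophage markers were lower beside them, with Csf1r, the macrophage growth factor receptor, at 3185 in SPAD and 58410 in SVCD, whereas Cd14 differed by 0.11 and Lyz2 by 0.35; the part of such cells in the Ucp2 value was not tested.

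Acot1 and Acot2 encode near-identical thioesterases that release fatty acids from CoA, Acot1 in the cytosol and Acot2 in mitochondria. Acot2 had 140 in SPAD and 48.3 in SVCD, 3.17-fold higher (1.66 ± 0.11). Acot1 had 132 in SPAD and 451 in SVCD, 3.13-fold lower (-1.65 ± 0.11). These neighbouring genes on chromosome 12 were therefore 3.31 ± 0.15 apart in log2 difference, in opposite directions. The next genes of the same cluster were higher, Acot4 by 1.01 and Acot3 by 1.90 ± 0.26 (130 in SPAD and 38.2 in SVCD). Whether each probe also binds transcripts of the neighbouring copies was not tested, so these values are uncertain. Pdk4, the kinase that turns off pyruvate use when fatty acids are burned, had 212 in SPAD and 432 in SVCD, 1.87-fold lower (-0.90 ± 0.06).

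Peroxisomal beta-oxidation genes were mostly lower by less than 2-fold, with 8 of 10 below 0 and a median of -0.27. With spike-in scaling 7 of the 10 were at least 2-fold lower, as were 38.1% of all genes. Acaa1a and Acaa1b are the peroxisomal thiolases. Acaa1a had 10171 in SPAD and 19457 in SVCD, 1.75-fold lower (-0.81 ± 0.04), and Acaa1b had 737 in SPAD and 1181 in SVCD (-0.55 ± 0.04). Their probes can share transcripts of the other copy, which was not tested. Acox3, an oxidase for branched chains, had 1295 in SPAD and 2544 in SVCD, 1.80-fold lower (-0.85 ± 0.03), and its other probe gave -0.58 ± 0.04. Acox2, the oxidase that also acts on bile acid intermediates, had 35.2 in SPAD and 16.5 in SVCD, 2.33-fold higher (1.22 ± 0.26). Acox2 and Acox3 thus differed in opposite directions, and Acox2 was close to the background, where the error is largest.

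Both bifunctional enzyme genes of the peroxisome were below 0. Ehhadh, the L-bifunctional enzyme and a known PPAR target in liver, had 60.0 in SPAD and 99.6 in SVCD (-0.61 ± 0.11). Hsd17b4, the D-bifunctional enzyme, had 5162 in SPAD and 6815 in SVCD (-0.28 ± 0.04). Scp2, which encodes a sterol carrier and a thiolase for branched chains, differed by -0.25 ± 0.04, or by -0.85 ± 0.03 on its other probe. The reductase gene Decr2 differed by -0.27 ± 0.04, Crot, which hands shortened chains over as carnitine esters, by -0.13 ± 0.04, and the racemase gene Amacr by 0.08 ± 0.01.

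Alpha-oxidation, which removes a single carbon from methyl-branched phytanic acid, was split between its enzymes. Hacl1, the lyase that cleaves the hydroxylated chain, had 418 in SPAD and 202 in SVCD, 2.26-fold higher (1.17 ± 0.06). Phyh, the hydroxylase that acts before it, had 624 in SPAD and 1090 in SVCD, 1.60-fold lower (-0.68 ± 0.04). Of the transporters that bring acyl-CoA into peroxisomes, Abcd3 had 3808 in SPAD and 3195 in SVCD (0.38 ± 0.04). Abcd2 was well above background in SVCD alone, at 4.93 in SPAD and 37.9 in SVCD, and was at least 3.22-fold lower in SPAD. This bound sets the SVCD value against the dimmest signal that counted as well above background on the SPAD array.

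All 4 peroxisome biogenesis members were below 0 without reaching 2-fold, with a median of -0.44, and with normexp background correction 3 of the 4 were below 0. With spike-in scaling 3 of the 4 were at least 2-fold lower, with a median of -1.28. Of all genes 38.1% were then at least 2-fold lower, with a median of -0.77. Pex11a, which promotes peroxisome division, had 1123 in SPAD and 2160 in SVCD, 1.76-fold lower over 10 spots (-0.82 ± 0.01). Pex19, the carrier of newly made membrane proteins, had 487 in SPAD and 842 in SVCD (-0.66 ± 0.04). Pex5, the receptor for enzymes with the common targeting signal, differed by -0.21 ± 0.04 and its docking partner gene Pex14 by -0.04 ± 0.04. Among 12 other peroxins 7 were below 0 and none reached 2-fold, with a median of -0.16. With spike-in scaling 10 were below 0 and 6 at least 2-fold lower, as were 38.1% of all genes. With the mean over probes 1 was at least 2-fold higher. Pex13, another part of the docking complex, was at 0.95, Pex6, an ATPase that recycles the receptor, at 0.87, Pex3, the membrane anchor for Pex19, at 0.82 and Pex11g at -0.87.

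Other genes of the same pathways lay on both sides of 0. Of 22 further peroxisomal genes measured on both arrays, 3 were higher and 2 lower by 2-fold or more, with a median of 0.03. With normexp 1 was higher and 0 lower. With spike-in scaling 1 was higher and 7 lower, with 18 below 0 and a median of -0.81, against -0.77 for all genes. Besides Acot3 and Acot4, Abcd4 was 2.53-fold higher and the hydrolase gene Nudt12 2.49-fold lower. Of 6 fatty acid activating and malonyl-CoA genes, 2 were higher and 1 lower by 2-fold or more, against 0 and 0 with normexp and 0 and 2 with spike-in scaling. Acacb, whose product malonyl-CoA blocks the carnitine palmitoyltransferases, was at 52.9 in SPAD and 26.2 in SVCD (1.14 ± 0.26). The synthetase gene Acsl3 was 2.27-fold higher, Acsl5 2.03-fold lower and Acsl1 1.72-fold lower.

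Of 8 regulators of oxidation genes measured on both arrays, 6 were above 0, with a median of 0.76. At least 2-fold higher were 4 of the 8, against 14.4% of all genes, and 0 were lower by as much. With normexp 3 were at least 2-fold higher, and with the mean over probes also 3, with a median of 0.40. Rxra was 2.41-fold higher on its brighter probe, whereas its other probe gave -0.16. With spike-in scaling 2 were higher and 2 lower by 2-fold or more, against 5.19% and 38.1% of all genes, with a median of -0.08. Ppard, a PPAR form active in oxidative tissues, had 7365 in SPAD and 1678 in SVCD, 4.79-fold higher (2.26 ± 0.03), and Pparg, the adipogenic form, 1587 in SPAD and 440 in SVCD, 3.93-fold higher. Ppara, the form known for driving oxidation in liver, had 189 in SPAD and 240 in SVCD (-0.22 ± 0.06), while a dimmer Ppara probe was well above background in SPAD alone. Ppargc1a, the coactivator of oxidative metabolism, was well above background in SPAD alone at 50.2 and at least 6.37-fold higher, although its other probe was well above background on neither. Ppargc1b, its relative, had 7.63 in SPAD and 28.4 in SVCD, was well above background in SVCD alone and was at least 2.41-fold lower. Prdm16, a regulator of brown fat identity, was also well above background in SVCD alone, at 7.53 in SPAD and 13.3 in SVCD. Esrra, an estrogen-related receptor that acts with these coactivators, had 2508 in SPAD and 5253 in SVCD, 1.92-fold lower. The coactivator genes thus stood in opposite directions. Nrip1, a corepressor of oxidation genes in fat, was 3.44-fold higher. Of the other PPAR targets 4 of 8 were measured on both arrays and none reached 2-fold, although 2 were at least 2-fold lower with spike-in scaling, with Pdk2 at 0.96, Plin2 at -0.30 and Angptl4 at -0.28, and Cidea was well above background in SPAD alone.

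**Figure D3:**
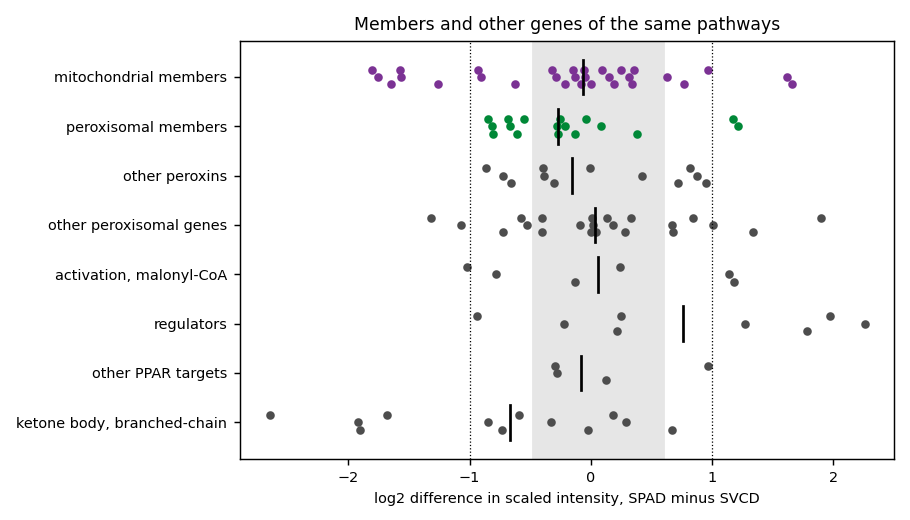
Log2 difference (SPAD minus SVCD) of each gene well above background on both arrays, for the members and 6 lists of related genes, with the black bar at the list's median, dotted lines at 2-fold and the grey band at the interquartile range of all genes. The medians of the members lie at -0.07 (mitochondrial) and -0.27 (peroxisomal), and that of the regulators at 0.76.

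The 4 higher members depended on how dim signals and the arrays were treated. With the normexp background correction, which damps dim signals, Cpt1b was at 0.99, Acot2 at 0.94, Hacl1 at 0.89 and Acox2 at 0.47, and with spike-in scaling they were at 0.78, 0.82, 0.33 and 0.38. All 4 kept their sign and fell short of 2-fold in both cases. The 6 lower members, Ucp2, Ucp3, Acot1, Acaa2, Hadh and Etfb, stayed at least 2-fold lower with normexp and quantile normalization. They also did so with spike-in scaling and the authors' table, but those 2 settings could not have changed this. Spike-in scaling lowers every difference by 0.84, the 4 higher members included. The authors' table adds 0.12 to every scanner difference, where the scaling used here adds 0.13.

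**Figure D4:**
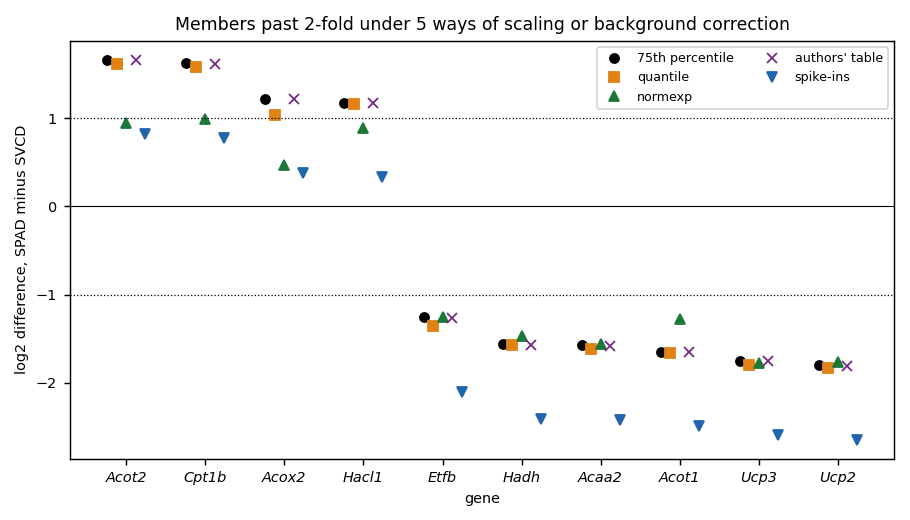
Log2 difference (SPAD minus SVCD) of the 10 members past 2-fold, under scaling to the 75th percentile, quantile normalization, normexp background correction, the authors' table of processed values and scaling to spike-in controls. The 6 genes on the right lie below -1 in every case, while the 4 on the left lie under 1 with normexp and with spike-ins. Spike-in scaling lowers all values by 0.84, so it could not lift the 6.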

How the data were processed

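Total RNA was labelled with Cy3 and hybridised to 1 array per group, and both arrays shared slide and scan. Per the submitters' processing notes, the authors quantified spots in Agilent Feature Extraction 10.7.3.1. The deposited intensity is background-subtracted and linear, per the file headers. The authors' table of log2 values is centred per probe, and its difference equals that of the scanner files plus 0.12. How the authors scaled it is not stated in the labels or headers.

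Computed here with Python 3.11.15 (numpy 2.4.6, pandas 2.3.3) and, for normexp with an offset of 50, limma 3.58.1 in R 4.3.3: control spots (1377 of 44397) and outlier spots (73 in SPAD and 85 in SVCD) were left out, repeat spots averaged, and log2 intensity scaled to the array's 75th percentile (622 in SPAD and 678 in SVCD). Of 39425 probes, 25414 were well above background in SPAD and 25868 in SVCD, and none was saturated. RefSeq transcripts named 27506 probes. The probe with the highest mean signal stands for a gene. Normexp used the median spot signal, since the files used here give no mean signal. The scripts were tested on simulated data. Every member may be named; of the other lists, up to 4 genes each with the largest difference, and Ppara, Ppargc1a, Pparg and Adipoq. Acot4, Cd14, Cox7a1, Dpp4, Elovl3, Esrra, Lyz2, Mccc1, Pcca, Ppargc1b, Prdm16, Rxra and Upk3b were named after their values were seen. Members and lists were chosen with earlier results of these data known, and the motifs after the values were seen. A planned comparison of protein sequences was not made. With 1 array per group no p-value is given, and the number of arrays limits the precision.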

Additional observations from a re-analysis of the deposited data

How the results depend on the processing

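Counts and medians of the members were recomputed under 9 alternatives. With normexp, 0 mitochondrial and 0 peroxisomal members were at least 2-fold higher, against 9.78% of all genes. Spike-in scaling used 8 spike-in probes, whose log2 differences ran from 0.65 to 1.76. Of the mitochondrial members 0 were then at least 2-fold higher and 12 lower, with a median of -0.91. Of the peroxisomal members 0 were higher and 11 lower, with a median of -1.11. Over all genes 38.1% were at least 2-fold lower with this scaling, with a median of -0.77. With a signal of at least 100 on both arrays, 0 mitochondrial and 1 peroxisomal member were at least 2-fold higher, while over all genes 1195 were higher and 1100 lower. Without a filter on dim probes, or with the gene detected on a single array set at its bound, 1 peroxisomal member (Abcd2) was at least 2-fold lower, and without the filter 3371 of all genes were at least 2-fold higher and their median was 0.25. Apart from the spike-in values given above, the remaining counts lay within 1.5 times the value given and the remaining medians within the spot SD of 0.12, including all those with quantile normalization, the authors' table, the mean over probes, and Acad11, Crat and Eci2 counted as peroxisomal. The mean over probes added Cpt2 to the members past 2-fold. No member past 2-fold changed sign under any scaling, background correction or probe rule run. The lower members could not do so with spike-in scaling, which lowers every difference. The normexp loss falls on dim genes by its construction, and the cause of the spike-in shift was not tested. No paired analysis was possible because each group has 1 array.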

Other observations

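Genes for the use of ketone bodies and branched-chain amino acids, whose breakdown shares the acyl-CoA steps and the electron transfer flavoprotein with fatty acid oxidation, were mostly lower in SPAD. Of 12 genes, 4 were at least 2-fold lower (33.3%, against 13.3% of all genes) and none at least 2-fold higher (14.4% of all genes). Differences below 0 were held by 9, with a median of -0.66, against 0.07 for all genes. With spike-in scaling, which lowers every difference by 0.84, 8 were at least 2-fold lower, as were 38.1% of all genes. Bdh1, the mitochondrial dehydrogenase that interconverts the main ketone bodies, had 39.5 in SPAD and 270.3 in SVCD, 6.27-fold lower (-2.65 ± 0.26), and its probe of next signal gave -2.09. Oxct1, which activates ketone bodies for oxidation, had 1824 in SPAD and 7549 in SVCD, 3.79-fold lower (-1.92 ± 0.03). Mccc2, a subunit of the leucine-degrading methylcrotonyl-CoA carboxylase, had 56.8 in SPAD and 233 in SVCD, 3.75-fold lower (-1.91 ± 0.11), whereas its partner Mccc1 differed by 0.67. Pccb, a subunit of propionyl-CoA carboxylase, had 54.8 in SPAD and 192 in SVCD, 3.21-fold lower (-1.68 ± 0.11), while its partner Pcca differed by 0.18. Both carboxylases thus had a beta subunit gene lower in SPAD beside an alpha subunit gene above 0. With spike-in scaling all 12 genes were below 0. Etfb also stood below Etfa, itself at -0.15 on its brighter probe, whereas Hadha and Hadhb were only 0.07 ± 0.07 apart.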
